A study of Mus musculus with 3 samples.

Results

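Granzymes C to G are 5 neighbouring serine protease genes of the mouse, Gzmc, Gzmd, Gzme, Gzmf and Gzmg, described here in T cells sorted from tumours. They were taken by gene symbol and are 5 of the 32285 genes counted. Their UMIs (unique molecular identifiers, each standing for 1 captured transcript) were summed over CD8, Tyrobp and Foxp3 gates set on other genes. The libraries came from MC38 tumours, a mouse colon carcinoma line, removed on day 15 after 5 days of treatment and sorted for CD3. There were 3 libraries, labelled homo, mix and PBS, with 1 library per group. By its title, the series is about interleukin-2 that is targeted to the inhibitory receptor LAG3. What the homo and mix animals received, the strain and age of the mice and the number of tumours in a library are not in the labels.

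Granzymes are stored in the granules of cytotoxic lymphocytes on the proteoglycan serglycin and enter target cells with the help of perforin. Granzyme B is the best known member and starts apoptosis by cleaving after aspartate. In the mouse, the genes of granzymes C to G lie in a cluster with Gzmb, are switched on in strongly or repeatedly stimulated cytotoxic T cells and in some NK cells, and have no direct counterpart in humans. Granzyme C can kill cells in the mouse, while the substrates of granzymes D to G are less well known.

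The genes lie on mouse chromosome 14 in the order Gzme, Gzmd, Gzmg, Gzmf and Gzmc, with Gzmn between Gzmg and Gzmf and with Gzmb after Gzmc. All 5 matched the RefSeq promoter table, which holds 250 bases before to 50 bases after each gene's start on GRCm38.p6. A stretch that lines up in all 5 promoters is shown because it carries the bases by which the promoters differ at a cyclic AMP response element (CRE) motif. The letters run 5′ to 3′ on the minus strand, at chr14:56234640-56234744 for Gzmc, chr14:56132580-56132684 for Gzmd, chr14:56120613-56120717 for Gzme, chr14:56211415-56211519 for Gzmf and chr14:56159582-56159686 for Gzmg. Capitals mark the 8 bases that correspond to the motif.
Gzmc: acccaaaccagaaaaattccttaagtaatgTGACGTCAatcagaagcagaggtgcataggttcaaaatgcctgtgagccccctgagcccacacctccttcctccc
Gzmd: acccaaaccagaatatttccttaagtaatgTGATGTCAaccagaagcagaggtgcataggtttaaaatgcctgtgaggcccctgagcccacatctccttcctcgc
Gzme: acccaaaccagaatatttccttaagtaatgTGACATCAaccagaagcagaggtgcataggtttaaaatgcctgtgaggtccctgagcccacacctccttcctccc
Gzmf: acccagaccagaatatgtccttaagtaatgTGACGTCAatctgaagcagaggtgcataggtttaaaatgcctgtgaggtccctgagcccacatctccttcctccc
Gzmg: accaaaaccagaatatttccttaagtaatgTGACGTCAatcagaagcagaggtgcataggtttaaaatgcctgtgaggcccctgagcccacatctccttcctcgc

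The letters TGACGTCA, the CRE motif, which reads the same on both strands, stood in the promoter windows of Gzmc, Gzmf and Gzmg and in 1.79% of all 32851 windows. Counting from 1 at the 5′ end of the capitals, with the base of Gzmc first, Gzmd differed by C4T and Gzme by G5A. The letters TTTAAAA, searched on both strands as a TATA-like motif, were found for Gzmd, Gzme, Gzmf and Gzmg but not for Gzmc, and in 8.74% of all windows. The RUNX letters TGTGGT occurred 2 times in each of the 5 windows and at least once in 16.8% of all windows. The AP-1 letters TGANTCA (7.81% of windows) and the STAT letters TTCNNNGAA (8.30%) were in none of the 5, and the Gzmb window held both. These motifs were chosen with the sequences in view, and a match is a description of letters, not a site of binding. Full promoter windows were 73.5% to 93.4% identical among the members and 43.5% to 47.8% identical to Gzmb, with Gzmd and Gzme the most alike.

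Transcripts were alike enough for reads to be shared, so values of single members carry that limit. The reference transcripts are 894 to 964 bases long, and Gzmd and Gzme are 90.04% identical, while Gzmc is 68.8% to 70.6% identical to the other members. In the last 400 bases, where a 3′ kit reads, no 90-base window of any member occurred unchanged in another member. With up to 2 mismatches allowed, 32.2% of the windows of Gzmd, 28.9% of Gzme, 20.6% of Gzmf, 2.57% of Gzmg and 0 of Gzmc were found in another member. The window of 90 bases was assumed, since the read length is not given in the sources used here. A 3′ kit counts a transcript once whatever its length, so UMI levels of the members were set side by side without a correction for length. Shared reads may affect the members unequally, and their part was not tested.

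The libraries held 49179708 to 65336646 UMIs, with a median of 6582 UMIs per barcode in homo, 4955 in mix and 4748 in PBS. Libraries shared 100 to 131 cell barcodes per pair. Barcodes over the mitochondrial limit numbered 347 in homo, 26 in mix and 26 in PBS and were left out. The CD8 gate (CD3 and CD8 genes, no Cd4 or Foxp3) held 6398 cells in homo, 5547 in mix and 7048 in PBS, with Cd8a in 96.3%, 97.2% and 96.3% of them. The Tyrobp gate (CD3 genes and at least 2 UMIs of Tyrobp, an adaptor of NK cell receptors) held 129, 41 and 61 cells, of which 29.5%, 31.7% and 21.3% carried the Ly49 receptor gene Klra7 and 89.9%, 87.8% and 80.3% carried Cd8a. The Foxp3 gate (CD3 genes and Foxp3, no CD8 genes) held 124, 800 and 835 cells, with Ikzf2, a transcription factor of regulatory T cells, in 93.5%, 91.8% and 89.5%. With 1 library per group no difference has a replicate check, and all intervals are 95% intervals for counting error only.

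Gzmf was the most abundant of the 5 genes in CD8-gate cells of every library, followed by Gzmc, Gzmd, Gzme and Gzmg. Levels are UMIs of a gene scaled to 1000000 UMIs in the gate (CPM). Gzmf stood at 2715 CPM in homo, 2903 CPM in mix and 4014 CPM in PBS. Gzmc stood at 1059 CPM in homo, 599.6 CPM in mix and 749 CPM in PBS. On this scale homo was the lowest of the 3 for Gzmf and the highest for Gzmc, but Gzmf in homo over mix was higher as a mean of CPM per cell (log2 ratio 0.13) and in cells thinned to 2000 UMIs (0.16).

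The 3 scarcer members were highest in PBS. Gzmd was at 213.5 CPM in homo, 190.1 CPM in mix and 358 CPM in PBS. Gzme was at 148 CPM in homo, 143 CPM in mix and 215 CPM in PBS. Gzmg was at 9.69 CPM in homo, 24.5 CPM in mix and 54.7 CPM in PBS. Intervals of neighbours in this order did not overlap in any library, and the nearest were Gzmd (185.6 to 194.7 CPM) and Gzme (139 to 147 CPM) in mix.

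Homo and PBS differed in opposite directions for Gzmc and for the other members. The log2 ratio of homo over PBS in the CD8 gate was 0.50 for Gzmc (95% interval 0.48 to 0.52), against -0.75 for Gzmd (-0.78 to -0.71), -0.54 for Gzme (-0.58 to -0.49), -0.56 for Gzmf (-0.57 to -0.55) and -2.50 for Gzmg (-2.64 to -2.35). The median over all 3013 genes compared was -0.05. Gzmc took 25.5% of the members' UMIs in homo, 15.5% in mix and 13.9% in PBS. Gzmf took 65.5% in homo, 75.2% in mix and 74.5% in PBS.

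The summed level of the 5 genes was 4145 CPM in homo, 3861 CPM in mix and 5390 CPM in PBS. Its log2 ratio was -0.38 for homo over PBS (-0.39 to -0.37), -0.48 for mix over PBS (-0.49 to -0.47) and 0.10 for homo over mix (0.09 to 0.11). The sum weights cells by their depth and is carried by Gzmf. As a mean of CPM per cell, the ratio of homo over PBS was -0.05, and with every cell thinned to 2000 UMIs it was -0.08.

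Mix was below PBS for all 5 members. The log2 ratio of mix over PBS was -0.32 for Gzmc (-0.35 to -0.30), -0.91 for Gzmd (-0.96 to -0.87), -0.58 for Gzme (-0.63 to -0.53), -0.47 for Gzmf (-0.48 to -0.46) and -1.16 for Gzmg (-1.28 to -1.05). Between the treated libraries, homo over mix gave 0.82 for Gzmc (0.80 to 0.84), 0.17 for Gzmd (0.12 to 0.21), 0.05 for Gzme (-0.01 to 0.10), -0.10 for Gzmf (-0.11 to -0.09) and -1.34 for Gzmg (-1.50 to -1.18). The homo over PBS and mix over PBS ratios share the PBS library.

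A change of at least 2-fold, among genes with at least 50 CPM in either library, was met by Gzmg and not by the other 4 members in homo over PBS and in mix over PBS, lower both times. Gzmg reached 50 CPM in PBS alone, so the minimum fixed the direction of both calls, and they are given as a description. The shares of all genes that met it were 0.631% higher and 1.49% lower in homo over PBS, and 0.102% higher and 0.17% lower in mix over PBS. In homo over mix none of the 4 members that reached 50 CPM was 2-fold apart, against 0.732% of all genes higher and 1.46% lower, and Gzmg was below 50 CPM in both libraries. Gzmg came from few cells. A single PBS barcode held 687 of the 2220 Gzmg UMIs of its gate. Without the barcode richest in summed members of each library, the Gzmg ratio was -2.12 for homo over PBS and -0.63 for mix over PBS. In mix that barcode held 0 Gzmg UMIs. Without the 1% of cells richest in summed members, the Gzmg ratio was -0.83 for homo over PBS and -0.17 for mix over PBS. Without the barcode richest in Gzmg itself, Gzmg stood at 8.67 CPM in homo, 20.4 CPM in mix and 37.8 CPM in PBS. PBS was then under the minimum, and neither call was met.

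**Figure D1:**
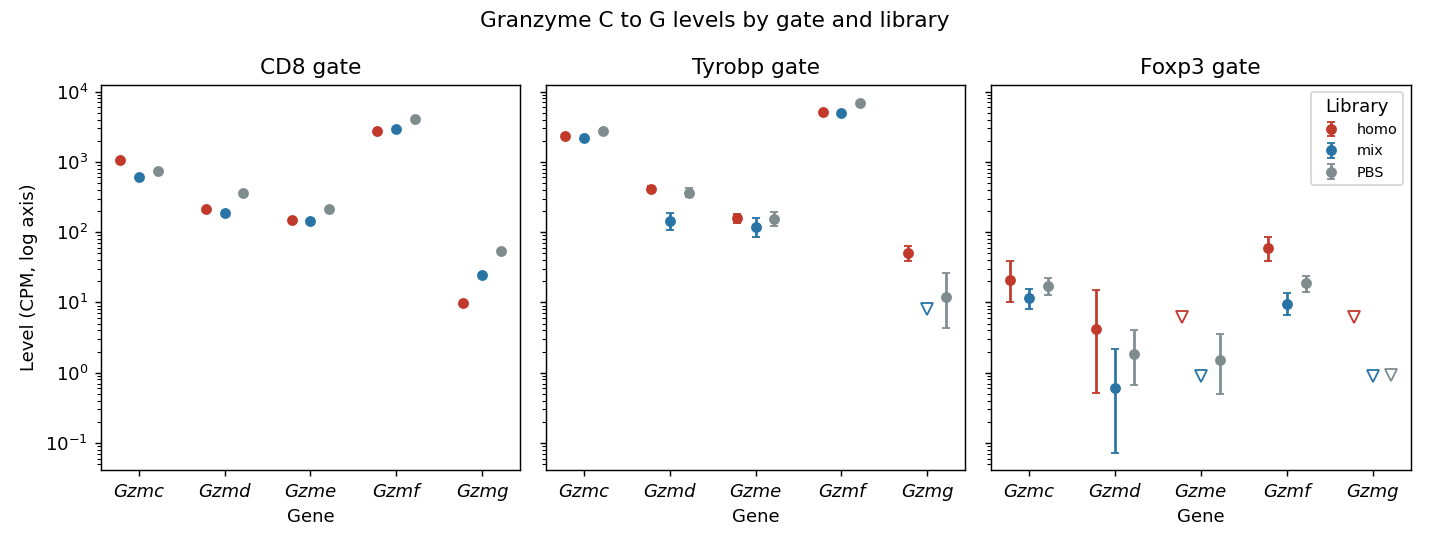
Level of each member in CPM (log axis) in the CD8, Tyrobp and Foxp3 gates, with points for homo, mix and PBS, bars for the 95% counting interval and open triangles for the level that 3 UMIs would give where none was counted. In the CD8 gate Gzmc was highest in homo (1059 CPM) and Gzmf in PBS (4014 CPM), and the Foxp3 gate stayed below 60 CPM.

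Gzmc was also found in more cells of homo. In CD8-gate cells thinned to 2000 UMIs, which takes out the difference in depth, a Gzmc UMI was present in 30.6% of cells in homo (29.4 to 31.8), 15.9% in mix (14.9 to 16.9) and 17.1% in PBS (16.2 to 18.0). Gzmf was present in 36.0% of cells in homo, 28.6% in mix and 34.0% in PBS. Gzmd was present in 10.7%, 6.08% and 10.1% of homo, mix and PBS cells, Gzme in 8.46%, 5.60% and 8.89%, and Gzmg in 1.13%, 0.896% and 1.34%. Any member was present in 47.3% of cells in homo, 34.5% in mix and 39.4% in PBS. Unthinned, Gzmc was found in 43.3% of homo cells, 24.5% of mix cells and 23.6% of PBS cells, at median depths of 6876, 5638 and 5086 UMIs. In homo 403 cells under 2000 UMIs were left out, against 299 in mix and 334 in PBS.

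Cells that held Gzmf held fewer UMIs of it in homo. Among thinned cells with Gzmf, the mean was 13.8 Gzmf UMIs per cell in homo, 15.6 in mix and 17.4 in PBS. At least 10 Gzmf UMIs were reached by 16.1% of cells in homo, 14.5% in mix and 18.6% in PBS, and at least 50 by 1.63%, 1.49% and 2.26%. For Gzmc the mean per cell with it was 5.53 UMIs in homo, 5.01 in mix and 5.59 in PBS, so homo was set apart from mix and PBS mainly by the share of cells. At least 10 Gzmc UMIs were reached by 5.12% of homo cells, 2.23% of mix cells and 2.73% of PBS cells. Gzmd reached 10 UMIs in 0.467% of homo cells, 0.667% of mix cells and 1.03% of PBS cells.

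**Figure D2:**
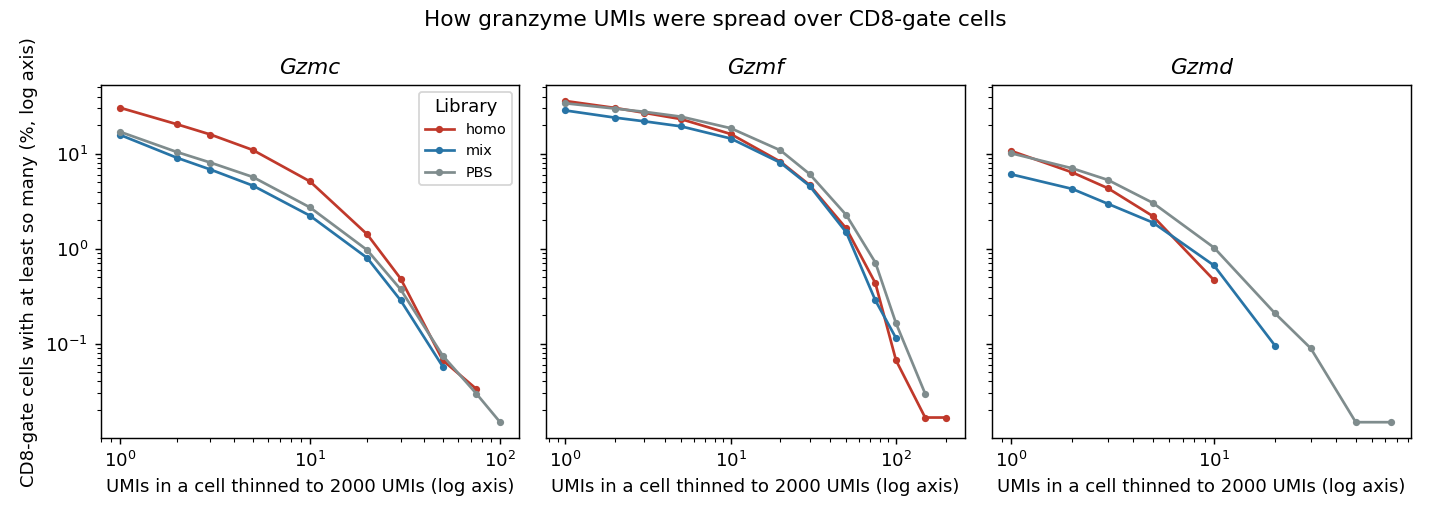
Share of CD8-gate cells (%, log axis) with at least a given number of UMIs (log axis) of Gzmc, Gzmf or Gzmd after thinning each cell to 2000 UMIs, with a line for each library. The homo line of Gzmc starts highest, at 30.6% of cells with 1 UMI, while the PBS line of Gzmf runs on top at 50 UMIs (2.26% of cells).

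Member UMIs were concentrated in few cells. The richest 1% of CD8-gate cells held 17.1% of all member UMIs in homo, 23.9% in mix and 23.6% in PBS. The 1% of cells richest in Gzmc held 24.5% of its UMIs in homo, 42.5% in mix and 42.1% in PBS. The 1% richest in Gzmg held 76.6%, 87.5% and 93.2% of Gzmg UMIs. The single richest cell carried 1215 member UMIs of 17228 in homo, 1540 of 15545 in mix and 4632 of 21940 in PBS. In that PBS barcode the 5 genes made up 21.1% of all UMIs, with 1832 of Gzmf, 990 of Gzmc, 841 of Gzmd, 687 of Gzmg and 282 of Gzme. Without the 1% of cells richest in summed members, Gzmc in homo over PBS was 0.79 and the sum was -0.27.

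Gzmc without Gzmf was more frequent in homo. After thinning, cells with Gzmc and no Gzmf were 9.64% in homo (8.91 to 10.4), 4.92% in mix (4.35 to 5.54) and 4.30% in PBS (3.83 to 4.82). Cells with Gzmf and no Gzmc were 15.0% in homo, 17.6% in mix and 21.2% in PBS, and cells with both were 20.97%, 10.9% and 12.8%. More Gzmc than Gzmf was counted in 13.3% of homo cells, 6.04% of mix cells and 5.30% of PBS cells. Among cells with at least 10 UMIs of this pair, the median Gzmc share was 15.1% in homo, 3.70% in mix and 3.33% in PBS. Cells with Gzmd, Gzme or Gzmg but neither Gzmc nor Gzmf were 1.73% in homo, 1.05% in mix and 1.07% in PBS.

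Within cells the members went together, most closely Gzmd and Gzme. Across CD8-gate cells, Pearson's r of log-scaled counts for Gzmd and Gzme was 0.79 in homo, 0.83 in mix and 0.86 in PBS (6398, 5547 and 7048 cells). These were the closest pair in transcript sequence too, and cells of a library share its depth and free RNA. For Gzmc and Gzmf r was 0.57 in homo, 0.55 in mix and 0.54 in PBS. Gzmc and Gzmb were less close, at 0.38, 0.26 and 0.21 in homo, mix and PBS, and Gzma and Gzmc were near 0 in all 3 libraries. Of thinned cells with Gzmd, 80.6% held Gzmf in homo, 88.1% in mix and 90.4% in PBS, whereas 24.0%, 18.7% and 26.9% of cells with Gzmf held Gzmd.

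Gzmf was highest in cells with Havcr2 (TIM-3, an inhibitory receptor of exhausted T cells) and no Tcf7, and lowest in cells with Tcf7, a factor that maintains stem-like T cells, and no Havcr2. CD8-gate cells were split into cycling cells and, among the rest, by UMIs of these 2 genes. Cells with Havcr2 and no Tcf7 had 4157 CPM of Gzmf in homo, 4630 CPM in mix and 6094 CPM in PBS. Cells with Tcf7 and no Havcr2 had 139.8 CPM in homo, 29.99 CPM in mix and 88.0 CPM in PBS. Gzmc in the same 2 states was 1402 CPM against 40.1 CPM in homo, 870.4 against 17.6 CPM in mix and 1030.3 against 45.6 CPM in PBS. In PBS cycling cells Gzmc was somewhat higher still, at 1142 CPM, and in homo and mix it was at 1243 and 746 CPM. Gzmd was 308 against 11.4 CPM in homo, 311 against 0.750 CPM in mix and 585 against 1.04 CPM in PBS. A cell with a Havcr2 UMI is more likely at high depth, and the median depth of these states was 7463 and 5343 UMIs in homo, 6494.5 and 4272 in mix and 5808 and 4245.5 in PBS.

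Gzmc was higher in homo than in PBS and mix within the 3 largest states. In Havcr2 cells without Tcf7 the log2 ratio of Gzmc was 0.44 for homo over PBS (0.42 to 0.47) and 0.69 for homo over mix (0.66 to 0.72). In cells with neither gene it was 0.80 for homo over PBS (0.74 to 0.85) and 1.15 for homo over mix (1.09 to 1.22). In cycling cells, which were 24.2% of the gate in homo, 11.1% in mix and 10.0% in PBS, it was 0.12 for homo over PBS (0.08 to 0.16) and 0.74 for homo over mix (0.69 to 0.78). In cells with Tcf7 and no Havcr2 it was -0.18 for homo over PBS (-0.54 to 0.18) and 1.19 for homo over mix (0.70 to 1.70). Gzmf was lower in homo than in PBS in Havcr2 cells without Tcf7 (-0.55), in cycling cells (-0.78) and in cells with both genes (-2.73). It was close in cells with neither gene (-0.08, -0.10 to -0.05). In cells with Tcf7 and no Havcr2 Gzmf was higher in homo than in PBS (0.67, 0.44 to 0.90), at 139.8 and 88.0 CPM. Cells with both Havcr2 and Tcf7 numbered 71 in homo, 27 in mix and 31 in PBS, and their Gzmc level was 300.3 CPM in homo, 1729 CPM in mix and 1098 CPM in PBS.

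**Figure D3:**
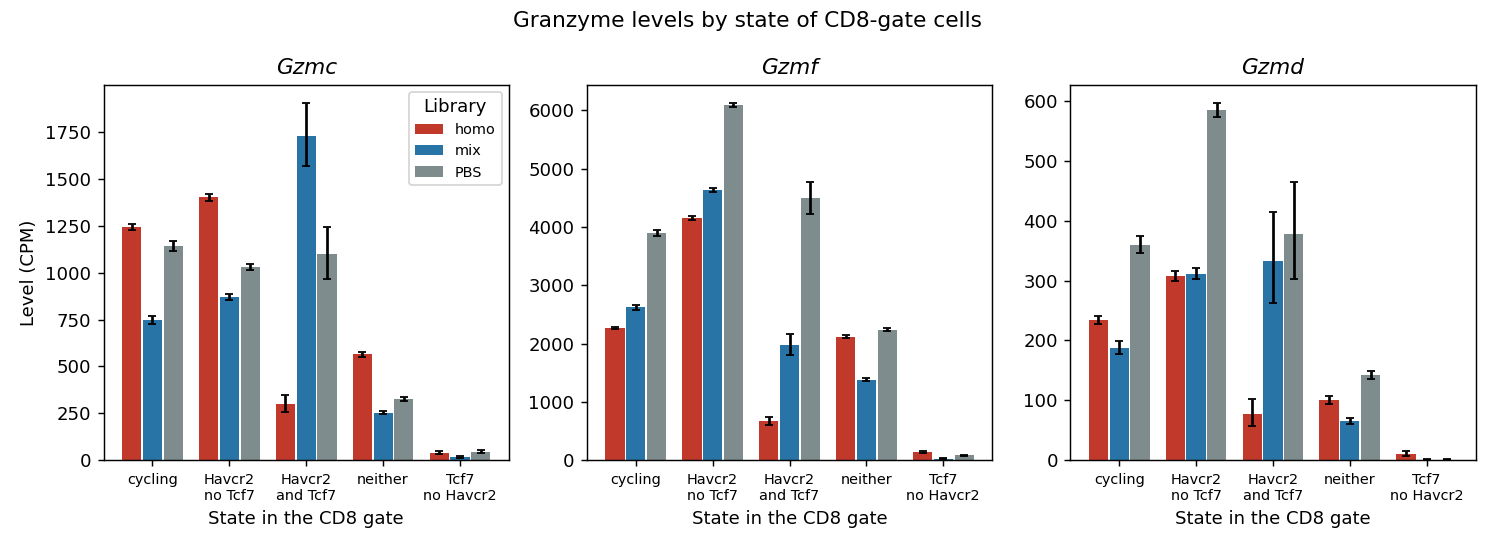
Level in CPM of Gzmc, Gzmf and Gzmd (each on its own axis) by state of the CD8-gate cells, with bars for homo, mix and PBS and 95% counting intervals. Cells with Tcf7 and no Havcr2 are near 0 for the 3 genes in every library, and the bars for cells with both genes rest on 27 to 71 cells.

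Of the 3 gates, the Tyrobp gate held the highest levels of the 2 leading members. Gzmf was at 5148 CPM in homo, 4882 CPM in mix and 6777 CPM in PBS, and Gzmc at 2309 CPM in homo, 2215 CPM in mix and 2791 CPM in PBS. Their log2 ratio of homo over PBS was -0.27 for Gzmc (-0.37 to -0.18) and -0.40 for Gzmf (-0.46 to -0.34). Gzmd was at 414 CPM in homo, 144.6 CPM in mix and 363 CPM in PBS, and Gzme at 157 CPM in homo, 117 CPM in mix and 154 CPM in PBS. In mix the intervals of Gzmd (108 to 189 CPM) and Gzme (84.9 to 158 CPM) overlapped.

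Gzmg had 61 UMIs in the Tyrobp gate of homo, 49 of them in 1 cell, 0 in mix, which allows up to 8.18 CPM, and 6 in PBS. At least 2-fold apart were Gzmg in homo over PBS (log2 ratio 2.08, higher), Gzmd in mix over PBS (-1.33, lower), and Gzmd (1.52) and Gzmg in homo over mix, both higher. Gzmg reached 50 CPM in homo alone, which fixed its direction, and without the cell that held 49 UMIs it was at 9.91 CPM there and met no call. Gzmd in mix came from 53 UMIs in 5 cells, 36 of them in 1 cell. Without the barcode richest in Gzmd, Gzmd was at 363.9 CPM in homo, 47.8 CPM in mix and 254.3 CPM in PBS. In thinned cells a Gzmd UMI was present in 18.9% of homo, 12.2% of mix and 13.1% of PBS cells. Among all genes in these cells, 2.08% were at least 2-fold higher and 6.76% lower in homo over PBS, 2.13% higher and 2.37% lower in mix over PBS, and 2.85% higher and 8.02% lower in homo over mix. The gate held as few as 41 cells, and the barcode richest in Gzmc alone gave 36.6% of Gzmc UMIs in mix and 25.1% in PBS. Without the barcode richest in Gzmc, Gzmc was at 2189 CPM in homo, 1434 CPM in mix and 2139 CPM in PBS. Without the barcode richest in summed members instead, mix over PBS was -0.89 for Gzmc, against -0.33 with every barcode. Homo over mix was then 0.60 against 0.06.

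Foxp3-gate cells held little of any member. Gzmc had 10 UMIs (20.9 CPM) in homo, 38 (11.4 CPM) in mix and 56 (17.1 CPM) in PBS, and Gzmf had 28 (58.6 CPM), 32 (9.59 CPM) and 61 (18.6 CPM). Gzmd had 2, 2 and 6 UMIs, Gzme 0, 0 and 5, and Gzmg 0 in every library. In thinned cells any member was found in 6.48% of homo (2.65 to 12.9), 4.98% of mix (3.49 to 6.86) and 6.73% of PBS cells (5.01 to 8.83). CD4-gate cells without Foxp3, a T cell class that usually lacks these genes, gave 4.84% (1.01 to 13.5), 4.598% (2.40 to 7.89) and 7.08% (4.18 to 11.1). The intervals overlapped in each library, so the Foxp3-gate shares were not distinguishable from these at this depth, and no expression was read from them. Median depths were 3368, 3448 and 3088 UMIs in the Foxp3 gate and 3424, 3169 and 2482 UMIs in the CD4 gate of homo, mix and PBS.

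Gzmf in the Foxp3 gate, where it reached 50 CPM in homo alone, had a log2 ratio of 1.65 for homo over PBS (0.95 to 2.32), where 1.89% of genes were at least 2-fold higher and 1.48% lower. It was 2.61 for homo over mix, where 1.64% were higher and 1.8% lower. In mix over PBS no member reached 50 CPM. One homo barcode held 20 of the 28 UMIs, and without the richest barcode of each library the ratios were -0.15 for homo over PBS and 0.80 for homo over mix. Gzmf in homo was then at 16.8 CPM, under the minimum, so no call was met. In the Foxp3 gate of PBS, Gzmc took 43.8% of the members' UMIs (35.0 to 52.8), against 13.9% in its CD8 gate. One PBS barcode held 11 of those 56 Gzmc UMIs. Gzmc made up 10 of 40 member UMIs in homo and 38 of 72 in mix, against 25.5% and 15.5% in their CD8 gates. The part of free RNA in these counts was not tested. By contrast, Gzmb stood at 2453 CPM in homo, 6086 CPM in mix and 6342 CPM in PBS in the same Foxp3-gate cells.

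Other genes of the granule pathway were followed in the CD8 gate with a list of 20 genes, of which 15 reached 50 CPM in homo over PBS. At least 2-fold apart were Gzma (log2 ratio 1.88, higher in homo) and, lower in homo, Gzmb (-1.12), the pore former Prf1 (-1.38), the granzyme B inhibitor Serpinb9 (-1.53) and its relative Serpinb9b (-3.001). These were 1 higher and 4 lower of 15, beside 0.631% and 1.49% of all genes. In mix over PBS none of 15 was 2-fold apart, beside 0.102% of all genes higher and 0.17% lower, and the list median was -0.03. In homo over mix the same 5 genes were at least 2-fold apart in the same directions, of 16 that reached 50 CPM, beside 0.732% of all genes higher and 1.46% lower. The median of the list was -0.21 for homo over PBS and -0.18 for homo over mix. Gzmc (0.50) thus lay between Gzma and Gzmb, 2 other granzymes, in homo over PBS.

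Cells rich in members carried a marked set of other genes. CD8-gate cells were grouped by their member UMIs after thinning, into 0, 1 to 2, 3 to 9 and 10 or more. The last group was 21.5% of cells in homo, 16.3% in mix and 20.7% in PBS, and held 87.8%, 89.5% and 91.3% of member UMIs. Its median depth before thinning was 8465 UMIs in homo, 7918 in mix and 7100 in PBS, against 6464, 5201 and 4528 in cells with 0, and the part of depth was not tested.

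Stem-like genes were low in the member-rich cells. Of the 12 genes on that list, 7 reached 50 CPM in homo and in mix and 8 in PBS, and of these 6, 5 and 6 were at least 2-fold lower in cells with 10 or more member UMIs than in cells with 0. The background of genes 2-fold lower was 0.787% in homo, 1.3% in mix and 1.94% in PBS. The list medians were -1.91, -2.44 and -2.64 on the log2 scale, against all-gene medians of -0.05, -0.02 and -0.01. Tcf7 was lower by log2 ratios of -4.79 in homo, -5.42 in mix and -5.35 in PBS. The chemokine gene Xcl1 was at -4.00, -3.71 and -2.73, and the chemokine receptor Cxcr3 at -2.37, -3.49 and -4.52. Klf2, a transcription factor of quiescent T cells, was at -1.91, -0.67 and -1.10, and the chemokine receptor Ccr7 at -2.44 in mix and -2.54 in PBS. In homo Ccr7 was at -4.66, where it was below 50 CPM. With 3 to 9 member UMIs, Tcf7 was already at -4.37 in homo, -4.12 in mix and -3.61 in PBS.

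Among granule genes that reached 50 CPM, Serpinb9b showed the largest ratios with members. It was at 81.4 CPM in member-rich homo cells and 12.2 CPM in homo cells with 0, at 467 and 57.9 CPM in mix, and at 753 and 73.5 CPM in PBS. The log2 ratios were 2.74 in homo, 3.01 in mix and 3.36 in PBS. Prf1 was higher by log2 ratios of 1.04, 1.54 and 1.47, and Gzmb by 1.23, 1.004 and 0.56, while Gzma was at -1.06, -1.42 and -0.83 and Gzmk, another granzyme, at -1.25, -1.35 and -0.57. At least 2-fold higher were 3, 3 and 2 genes of the list in homo, mix and PBS, against 0.411%, 0.966% and 0.986% of all genes. At least 2-fold lower were 2, 2 and 0 genes, against 0.787%, 1.3% and 1.94% of all genes.

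Few innate-like and exhaustion genes were at least 2-fold higher. On the innate-like list these were 1, 2 and 2 of the 7 genes that reached 50 CPM in homo, mix and PBS, with none lower, and the medians were 0.32, 0.25 and 0.40. The shares of all genes at least 2-fold higher were 0.411%, 0.966% and 0.986%. Fcer1g, a signalling chain of NK and innate-like receptors, was at 558 CPM in member-rich cells of homo, 622 CPM in mix and 525 CPM in PBS, against 118.6, 105.3 and 56.8 CPM in cells with 0. Tyrobp, its partner adaptor and limited by the gate, was at 2.85, 3.28 and 1.39 CPM in member-rich cells, against 3.11, 1.99 and 2.50 CPM in cells with 0. Cd244a, a receptor of exhausted and NK cells, was higher by 1.16 in homo, 1.24 in mix and 1.62 in PBS, and Havcr2 by 0.87, 1.12 and 0.77. Cd160, another such receptor, was lower by -0.61, -0.77 and -0.23. The whole terminal exhaustion list had medians of -0.03, 0.21 and 0.28, and 1, 2 and 1 of its 13 genes that reached 50 CPM were at least 2-fold higher.

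The cycling list had medians of -0.40 in homo, -0.66 in mix and -0.31 in PBS in the member-rich cells, with 0 of 10, 1 of 9 and 0 of 9 genes at least 2-fold lower, beside 0.787%, 1.3% and 1.94% of all genes. In cells with 1 to 2 member UMIs the medians were 0.13, 0.27 and 0.03, and with 3 to 9 they were 0.12, 0.01 and 0.40. Rrm2, a subunit of ribonucleotide reductase, was at -0.42, -1.01 and -0.43 and Mki67, a marker of cycling cells, at -0.54, -0.92 and -0.36. The list of hypoxia and glycolysis genes had medians of 0.17, 0.40 and 0.42, with the mitophagy gene Bnip3 at 0.09 in homo, where it was below 50 CPM, 1.02 in mix and 1.03 in PBS. The IL-2 and STAT5 target list had medians of -0.24, -0.50 and -0.57, and the kinase gene Pim1 on it was at -0.60, -0.63 and -1.10. The feedback inhibitor Socs3 was at -2.05 in mix, -1.84 in PBS and -0.90 in homo, where it was below 50 CPM. The receptor subunit gene Il2rb was at 0.39, 0.51 and 0.60. The TCR-induced list had medians of -0.27, -0.02 and -0.02.

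**Figure D4:**
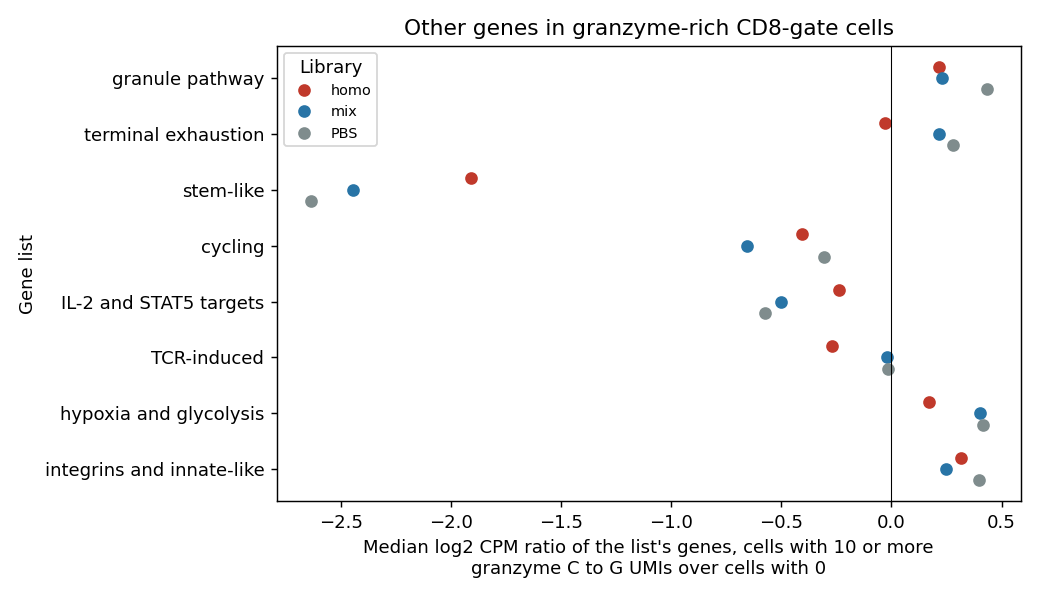
Median log2 CPM ratio of each gene list in CD8-gate cells with 10 or more member UMIs over cells with 0 (horizontal axis), with a point for each of homo, mix and PBS. The stem-like list lies farthest from 0, at -1.91 in homo, -2.44 in mix and -2.64 in PBS.

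The genes most like the summed members across CD8-gate cells were Fcer1g, Mt1, Havcr2, Irf8, S100a11, Prf1, S100a6, Cd244a, S100a4 and Capg. They were ranked among 7321 genes by the lowest of the 3 correlations with the sum, over 6398 cells in homo, 5547 in mix and 7048 in PBS. Fcer1g had r of 0.29 in homo, 0.33 in mix and 0.38 in PBS, and the metallothionein gene Mt1 had 0.33, 0.28 and 0.31. Irf8, a transcription factor, had 0.26, 0.34 and 0.44, and Prf1 had 0.25, 0.42 and 0.42. Most opposite were Cxcr3, Emb, Itgb7, Tcf7 and Ms4a4c, led by Cxcr3 at -0.31 in homo, -0.24 in mix and -0.29 in PBS. All of these correlations were weak, and cells of a library share its depth and free RNA.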

How the data were processed

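Raw UMI counts, as deposited by the authors, were read for every gene in each barcode. The version in the file headers is Cell Ranger 7.1.0, while Cell Ranger 2.1.1, Seurat 4.1.0 and mm39 appear per the submitters' processing notes. The deposited counts gave no coordinates. Promoter sequences were taken from a RefSeq table on GRCm38.p6 and transcript sequences from GENCODE release M21.

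Cells needed 500 or more genes, 1000 or more UMIs and a mitochondrial share below 10%. Scrublet (scanpy 1.11.5) called 798 doublets in PBS and 0 in homo and mix with its own threshold, so the highest-scoring 0.8% per 1000 kept barcodes were removed. This left 7303 cells in homo, 7588 in mix and 9214 in PBS. CD8- and Foxp3-gate cells also needed under 2 Tyrobp UMIs, Tyrobp-gate cells no Foxp3 and no myeloid genes, and cycling cells at least 3 UMIs over 7 division genes.

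UMIs were summed per gate and library and scaled to CPM, with exact Poisson intervals. Ratios carry exact conditional binomial intervals and shares Clopper-Pearson intervals, all at 95%. There was no test, since each group had 1 library. Ratios were checked on simulated Poisson counts and correlations on simulated normal values. Neither check covers the uneven spread of member UMIs over cells. Genes named were the members, the 10 genes most like and 5 most opposite to their sum by Pearson's r, among genes found in at least 5% of cells, and up to 4 genes of each of 8 lists by size of ratio in a library. A gene named for 1 library is also given in the others. Tyrobp by member UMIs and Gzmb between libraries were added after their values were seen. Not every gene that this rule would name is reported here. Members, gates and lists were chosen with earlier results of these data known. Alternatives covered doublets, gates, depth, cell weighting, rich cells and scaling. Python 3.11.15, numpy 2.4.6, scipy 1.17.1, pandas 2.3.3, biopython 1.88 and matplotlib 3.10.9 were used.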

Additional observations from a re-analysis of the deposited data

Results flagged for a closer look

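Several ratios had opposite signs in different gates, and none of these differences was tested. Gzmc in homo over PBS was 0.4999 on the log2 scale in the CD8 gate (6398 homo and 7048 PBS cells) and -0.2738 in the Tyrobp gate (129 and 61 cells). Gzmf in homo over PBS was -0.5643 in the CD8 gate and -0.3967 in the Tyrobp gate, against 1.6542 in the Foxp3 gate. The summed members gave -0.3791 in the CD8 gate and -0.3219 in the Tyrobp gate, against 1.0995 in the Foxp3 gate. Gzmf in homo over mix was -0.0969 in the CD8 gate, 0.0765 in the Tyrobp gate and 2.6109 in the Foxp3 gate. One homo barcode held 20 of the 28 Gzmf UMIs of the Foxp3 gate. Without the barcode richest in summed members of each library, the Foxp3-gate values in homo over PBS were -0.15 for Gzmf and 0.08 for the sum.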

How the results depend on the processing

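No paired analysis was possible because each group had 1 library. Values below are log2 ratios, and the cause of a change was not tested. The richest barcode and the richest 1% of cells are those with the most summed member UMIs in a gate and library. For the summed members in the CD8 gate, homo over PBS (-0.38) became -0.35 without doublet removal, -0.39 at 2000 UMIs and 5% mitochondrial UMIs, -0.054 as a mean of CPM per cell, -0.084 in thinned cells, -0.27 without the richest 1% of cells, -0.36 without the richest barcode, -0.33 with a denominator free of members, ribosomal and mitochondrial genes, and -0.33 when centred on all genes. In the same order of settings, mix over PBS (-0.48) became -0.46, -0.49, -0.36 and -0.42, then -0.47 without the richest barcode, -0.49 with the other denominator, -0.47 centred, and -0.50 at a Tyrobp limit of 1 UMI. Homo over mix (0.10) became 0.12 at that Tyrobp limit, 0.31 per cell, 0.34 thinned, 0.22 without the richest 1%, 0.16 with the other denominator and 0.15 centred.

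Signs turned for Gzmf in the CD8 gate for homo over mix (0.13 per cell, 0.16 thinned), for Gzmf in the Foxp3 gate for homo over PBS (-0.15 without the richest barcode), for Gzmc in the Tyrobp gate for mix over PBS (0.015 per cell, 0.23 thinned), and in the Tyrobp gate for homo over mix for the sum (-0.12 at a Tyrobp limit of 1 UMI, -0.028 thinned) and Gzmf (-0.27 at that limit). Over 11 alternatives in the CD8 gate, Gzmc stayed between 0.49 and 0.86 for homo over PBS and between 0.81 and 1.09 for homo over mix. In that gate Gzmd, Gzme, Gzmf and Gzmg kept their signs in homo over PBS, and all 5 members did in mix over PBS. Of 406 values of members by gate, comparison and alternative, 293 stayed within the counting interval of the main ratio and 107 moved out of it. The other 6 moved out of an interval that excluded 0 and changed sign. Sign changes inside the interval, or where it included 0, were not counted here or listed above.

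The count of genes at least 2-fold apart moved with the CPM minimum. For homo over PBS, 19 higher genes became 55 at 10 CPM and 31 with the other denominator, and 45 lower genes became 116 at 10 CPM and 29 at 100 CPM. For mix over PBS, 3 higher genes became 17 at 10 CPM and 5 with the other denominator, and 5 lower genes became 24 at 10 CPM and 2 at 100 CPM. For homo over mix, 22 higher genes became 65 at 10 CPM and 13 at 100 CPM, and 44 lower genes became 105 and 29. In the Tyrobp gate the median of all genes was -0.11 for homo over mix. Leaving out the barcode richest in members or in 1 member and the level in myeloid-rich barcodes were added after seeing the data. Gzmg had no UMIs in the Foxp3 gates or in the 41 Tyrobp-gate cells of mix, which limits what can be seen of it.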

Other observations

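Gzmn, the gene between Gzmg and Gzmf, had 0 UMIs in the CD8 gate of homo, 1 in mix and 9 in PBS. In the CD4 gate, Gzmc had 1 UMI in homo, 13 in mix and 105 in PBS, and a single PBS barcode held 98 of them. Barcodes with at least 20 UMIs over myeloid genes numbered 3 in homo, 5 in mix and 14 in PBS and held 24, 0 and 25 member UMIs, of which the richest barcode held 23 in homo and 14 in PBS. The 347 homo barcodes over the mitochondrial limit held 186 member UMIs (632 CPM), against 4145 CPM in the CD8 gate of homo. Among the barcodes removed as doublets, the summed members were at 3682 CPM in homo, 2432 CPM in mix and 2999.7 CPM in PBS.

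Of thinned CD8-gate cells with Gzmc, 20.8% also held Gzma in homo, 3.97% in mix and 7.15% in PBS. Of all thinned CD8-gate cells, 19.0% held Gzma in homo, 6.75% in mix and 11.8% in PBS.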
